A study of Mus musculus with 2 samples.

Results

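The enzymes of the methionine cycle and of folate one-carbon metabolism were compared between 2 reporter-sorted cell populations of mouse dorsal skin. They were 10 genes chosen by name, namely Gnmt, Ahcy, Sardh, Mat2a, Mat2b, Shmt1, Shmt2, Mthfd1, Mthfd2 and Mtr. Every probe that the array design assigned to one of them was used, 17 of 41139 probes, and the 10 genes were among 27709 genes and transcripts measured on both arrays. The choice was made with ratios of these same arrays known, so all values below are descriptions and none was tested.

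The Lgr6-high cells came from Lgr6-EGFP-ires-CreERT2 knock-in mice and the Lgr5-high cells from Lgr5-EGFP-ires-CreERT2 knock-in mice. In each line green fluorescent protein and an inducible Cre recombinase are made under the control of the receptor gene, so every animal carried a CreERT2 allele. Cells with bright fluorescence were sorted from pools of 3 mice, and the age and sex of the mice were not given in the sources used here. Total RNA of both populations was hybridised together on 2 Agilent two-colour arrays with the dyes exchanged, Lgr6-high RNA in Cy5 on array 1 and in Cy3 on array 2. Whether separate RNA pools were put on the arrays is not given in the sources used here, so the pair counted as 1 replicate, no test of the populations was possible, and each SD below is over the 2 arrays only.

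The methionine cycle turns methionine into S-adenosylmethionine, the methyl donor for DNA, RNA, histones and small molecules, and rebuilds methionine from the homocysteine that remains. The folate cycle carries single carbon units, taken mostly from serine, to methionine, thymidylate and purine rings. Both cycles are known for high activity in dividing cells, and the sarcosine loop formed by Gnmt and Sardh, which disposes of surplus methyl groups, is best known from liver.

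The largest ratio of the set was read by a Gnmt probe named for a RefSeq messenger RNA, at mm9 chromosome 17, 46862894 to 46863042 on the minus strand. Its 60 bases lie across 149 bases of the genome. The second probe shown is the Ahcy probe farthest upstream, at mm9 chromosome 2, 154891321 to 154891380. It had no usable Cy5 signal, so its ratio cannot be set against those of the other Ahcy probes. Both are printed 5′ to 3′ as the files list them.
Gnmt probe: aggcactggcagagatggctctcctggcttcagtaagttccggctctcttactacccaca
Ahcy upstream probe: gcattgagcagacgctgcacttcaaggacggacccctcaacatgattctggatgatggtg

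Both enzymes of the sarcosine loop and Ahcy were lower in the Lgr6-high than in the Lgr5-high cells, while Mat2a, which makes S-adenosylmethionine, was higher. Ratios are log2 of Lgr6-high over Lgr5-high after background correction and dye normalisation, negative where the Lgr6-high cells had less. Gnmt had a mean of -3.16 ± 0.70, Ahcy -2.05 ± 0.24, Sardh -1.99 ± 0.25 and Mat2a 1.33 ± 0.60 (SD, n = 2 arrays). A gene was called by size where the mean ratio was at least 1, that is 2-fold, and both arrays showed that direction with a ratio of at least 0.5. The remaining 4 compared genes, Mat2b, Shmt1, Shmt2 and Mthfd1, had means between -0.51 and 0.04 and were not called. Mthfd2 and Mtr were too dim to compare.

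By this rule 3 of the 8 compared members were called lower in the Lgr6-high cells, where 4.76% of all 6195 compared genes were called lower. Mat2a was the 1 member called higher, where 7.28% of all genes were. Nothing is read from the members' shares, because the same ratios were known when the list was drawn up. In all genes the split was 451 called higher and 295 called lower. It was 958 and 958 with the scanner software's own ratios, 212 and 204 without background subtraction, 124 and 151 with the background model fitted on all spots, and 134 and 57 with median centring. Median centring over all probes left the compared genes with a median of -1.36 on array 1 and 1.57 on array 2, so values on a single array under it stand relative to these. The median of the mean ratio was between -0.09 and 0.03 under the scalings tried. The RNA came from whole sorted populations, so fewer cells with a transcript and less transcript per cell cannot be told apart.

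**Figure D1:**
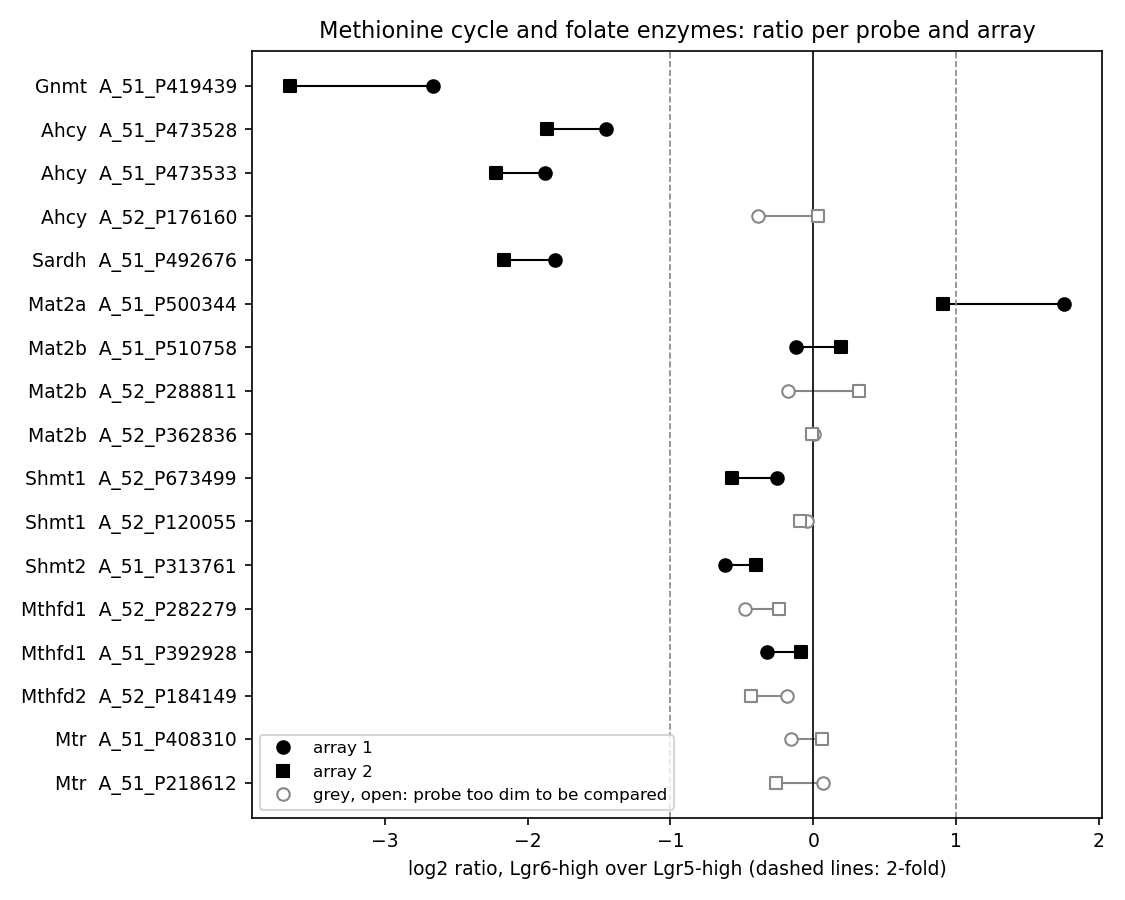
Log2 ratio of Lgr6-high over Lgr5-high cells (x axis) for each of the 17 probes of the 10 genes (rows), with a circle for array 1, a square for array 2 and dashed lines at 2-fold. The Gnmt, Sardh and 2 of the 3 Ahcy probes lie left of the lower line on both arrays, Mat2a lies near or beyond the upper line, and the other probes lie between the lines.

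Gnmt encodes glycine N-methyltransferase, which moves the methyl group of S-adenosylmethionine onto glycine and yields sarcosine. Its net signal, the spot minus its local background in scanner units, was 47.7 in Cy5 on array 1 and 165 in Cy3 on array 2 in the Lgr6-high cells. In the Lgr5-high cells it was 555 in Cy5 on array 2 and 2405 in Cy3 on array 1. Set dye against dye, the Lgr6-high signal was the lower one in both dyes. The probe was well above background in both populations on both arrays.

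The ratio of Gnmt was -2.67 on array 1 and -3.66 on array 2. The mean corresponds to an 8.97-fold higher level in Lgr5-high cells. Counted from the end with the least in Lgr6-high cells, Gnmt ranked 4 of 6195 genes. The scanner's own ratios were -3.78 and -5.01. Every one of the 10 alternative settings called Gnmt lower in Lgr6-high cells, with values between -4.40 and -2.01. Some of these settings cannot change a gene with 1 probe and returned the reported value.

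Sardh encodes sarcosine dehydrogenase of mitochondria, which returns sarcosine to glycine and passes the methyl carbon to folate. Its 1 probe lies at mm9 chromosome 2, 27044997 to 27045056 on the minus strand. Its net signal was 35.3 in Cy5 and 153 in Cy3 in Lgr6-high cells, against 203 in Cy5 and 914 in Cy3 in Lgr5-high cells. The Lgr6-high signal was well above background on array 2 only.

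The Sardh ratio was -1.81 on array 1 and -2.17 on array 2, and the mean corresponds to a 3.97-fold higher level in Lgr5-high cells. It ranked 34 of 6195. The scanner's ratios, -4.28 and -3.74, were larger in size, while with the background model fitted on all spots Sardh had a mean of -1.10 and, at -0.40 on array 2, was not called.

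Ahcy encodes adenosylhomocysteinase, which splits S-adenosylhomocysteine, the by-product and inhibitor of methyl transfer, into adenosine and homocysteine. It was read by 3 probes. The brightest, at mm9 chromosome 2, 154885817 to 154885876, had net signals of 59.4 in Cy5 and 413 in Cy3 in Lgr6-high cells. In Lgr5-high cells it had 411 in Cy5 and 1492 in Cy3. The Lgr6-high signal was lower in both dyes.

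The ratio of this Ahcy probe was -1.88 on array 1 and -2.22 on array 2, a 4.14-fold higher level in Lgr5-high cells, ranked 27 of 6195. A second probe, 239 bases downstream on the genome, had -1.45 on array 1 and -1.87 on array 2, a mean of -1.66 ± 0.29. Its Lgr6-high signal was above background on array 2 only. The upstream probe printed above, 5743 bases from the second, had -0.38 and 0.03, a mean of -0.18 ± 0.30. In Cy5 it was not well above background for either population, so it did not enter the comparison. Thus 2 of the 3 Ahcy probes passed the size rule and the third had no usable Cy5 signal. With median centring the brightest probe kept a mean of -2.03 but had -3.73 on array 1 and -0.33 on array 2, so it was not called.

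Mat2a encodes the catalytic subunit of the methionine adenosyltransferase found outside liver, which makes S-adenosylmethionine from methionine and ATP. Its 1 probe lies at mm9 chromosome 6, 72382856 to 72382915. Its net signal was 1408 in Cy5 and 10816 in Cy3 in Lgr6-high cells, against 794 in Cy5 and 2567 in Cy3 in Lgr5-high cells. The Lgr6-high signal was the higher one in both dyes.

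Mat2a had a ratio of 1.75 on array 1 and 0.91 on array 2, and the mean corresponds to a 2.52-fold higher level in Lgr6-high cells. The scanner's ratios were 1.57 and 1.65. Mat2a was called under 6 of 10 alternatives, where Gnmt was called under 10 of 10, Ahcy under 9 of 10 and Sardh under 8 of 9. These counts include alternatives that could not change the outcome. For Mat2a and Gnmt, with 1 probe each, no dim-probe filter, both populations above background and the mean over probes all returned the reported value. The authors' value table repeated the scanner's ratios. The Mat2a call was lost without background subtraction, at 0.98, with the background model fitted on all spots, at 0.92, with median centring, where the arrays read -0.63 and 3.39, and on array 2 alone, at 0.91. The arrays also differed by level at the bright end. Mat2a lay at percentile 95.4 of the compared genes by level, and the 248 genes between percentiles 95 and 99 had median ratios of 0.12 on array 1 and -0.65 on array 2. The median of their mean ratio was -0.27. Whether this shift plays a part in the difference between the arrays for Mat2a was not tested.

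Mat2b encodes the regulatory subunit that binds the Mat2a product. Its downstream probe, at mm9 chromosome 11, 40493216 to 40493275, had net signals of 46.4 in Cy5 and 365 in Cy3 in Lgr6-high cells and of 63.0 in Cy5 and 195 in Cy3 in Lgr5-high cells. The ratio was -0.12 on array 1 and 0.20 on array 2, a mean of 0.04 ± 0.22. The arrays lay on opposite sides of 0, so no direction was measured. The second probe had 0.07 ± 0.35 and was above background in Cy3 only, and the third, named for a cDNA clone, was above background in neither population on either array. The catalytic subunit was thus called and the regulatory subunit was not. Whether their ratios differ was not tested.

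**Figure D2:**
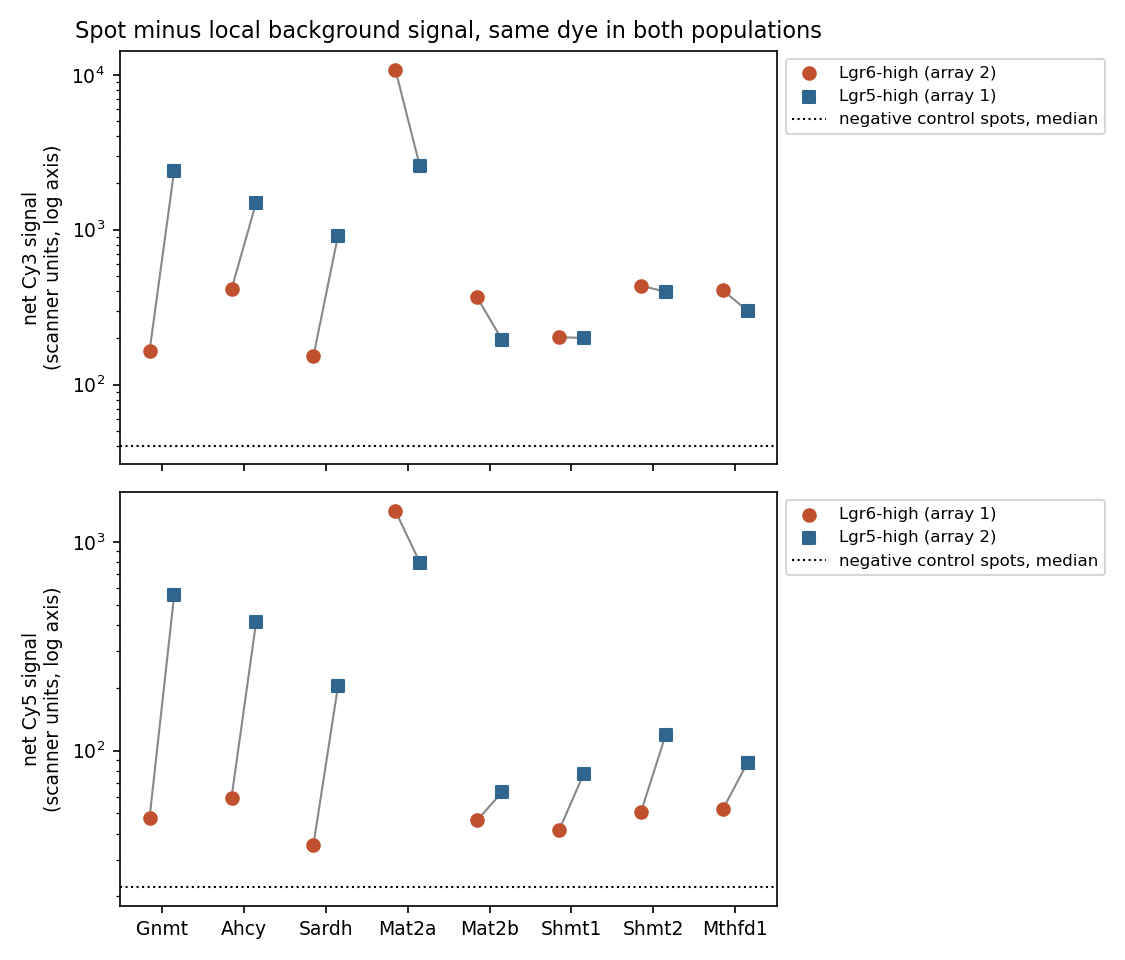
Net signal (spot minus local background, log axis) of the probe that stands for each of the 8 compared genes, with Cy3 in the upper and Cy5 in the lower panel, Lgr6-high cells as circles and Lgr5-high cells as squares, and the dotted line at the median of negative control spots. Gnmt, Ahcy and Sardh were dimmer and Mat2a brighter in the Lgr6-high cells in both dyes. Mat2b, Shmt1, Shmt2 and Mthfd1 were brighter in the Lgr6-high cells in Cy3, Shmt1 only slightly, and dimmer in Cy5.

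The net signals are not corrected between arrays. Over the 6195 compared genes the median net Cy3 signal was 502 for Lgr6-high cells on array 2 and 310 for Lgr5-high cells on array 1. The median net Cy5 signal was 69.0 for Lgr6-high cells on array 1 and 88.5 for Lgr5-high cells on array 2. Negative control spots had median net signals of 40.6 and 40.2 in Cy3 and 22.3 and 22.1 in Cy5 on arrays 1 and 2. Shmt1, Shmt2 and Mthfd1, described below, sat nearer to these controls in Cy5 than in Cy3.

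The serine hydroxymethyltransferases split serine into glycine and a folate-bound carbon unit, Shmt1 in the cytosol and Shmt2 in mitochondria. Shmt2, read at mm9 chromosome 10, 126954811 to 126954870, had 50.9 in Cy5 and 436 in Cy3 in Lgr6-high cells, against 119 in Cy5 and 397 in Cy3 in Lgr5-high cells. Its ratio was -0.62 on array 1 and -0.40 on array 2, a mean of -0.51 ± 0.16. Shmt2 was not called here and passed the rule with the scanner's ratios, at -1.32 on array 1 and -0.69 on array 2.

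Shmt1 was read by 2 probes, 8997 bases apart. The downstream probe had net signals of 41.6 in Cy5 and 202 in Cy3 in Lgr6-high cells, against 77.4 in Cy5 and 200.2 in Cy3 in Lgr5-high cells. Its ratio was -0.26 on array 1 and -0.57 on array 2, a mean of -0.41 ± 0.22. The upstream probe was above background in Cy3 only and had -0.07 ± 0.04. Both isoenzymes lay on the same side of 0 on both arrays, below the 2-fold minimum.

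Mthfd1 and Mthfd2 interconvert the folate-bound carbon units, Mthfd1 in the cytosol and Mthfd2 in mitochondria. The downstream Mthfd1 probe, at mm9 chromosome 12, 77418622 to 77418681, had 52.5 in Cy5 and 406 in Cy3 in Lgr6-high cells, against 87.6 in Cy5 and 299.8 in Cy3 in Lgr5-high cells. Its ratio was -0.33 on array 1 and -0.09 on array 2, a mean of -0.21 ± 0.17. The upstream Mthfd1 probe, 13788 bases away, had -0.36 ± 0.16 with signal above background in Cy3 only.

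The Mthfd2 probe was well above background in 1 of its 4 readings, that of Lgr5-high cells in Cy3 on array 1. Its net signals were 27.3 in Cy5 and 60.8 in Cy3 in Lgr6-high cells, against 42.6 in Cy5 and 79.9 in Cy3 in Lgr5-high cells, with a ratio of -0.31 ± 0.18. Mtr, the methionine synthase that moves a methyl group from folate to homocysteine and so joins the cycles, was above background in neither population with either of its 2 probes. Its ratios were -0.05 ± 0.15 and -0.10 ± 0.24. Neither gene's ratio can be read as a difference or as its absence at this signal.

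The probes of a gene differed in what they could detect. Of the 17 probes 7 were well above background in all 4 readings, 7 in some and 3 in none. The 9 probes bright enough to compare were those that stand for the 8 compared genes and the second Ahcy probe. In Mat2b, Shmt1 and Mthfd1 the probe farthest downstream was above background in all 4 readings. The next probe upstream, at 5066, 8997 and 13788 bases, was above it in 2, and the third Mat2b probe, at 6290 bases, in 0. Ahcy did not follow this order, since its farthest downstream probe was above background in 3 readings, the probe 239 bases upstream in 4 and that 5743 bases upstream in 2. The ratio of a called gene with 1 probe, as for Gnmt, Sardh and Mat2a, therefore has no check by another probe here.

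Next the sequences before the transcription starts of the 4 called genes are shown, since 3 of them had ratios in one direction and Mat2a in the other. Each is the 250 bases upstream of the start, on the gene's strand, from RefSeq on build GRCm38.p6, and all 10 members matched by symbol. Capitals mark matches on either strand to CCAAT, the letters of the CCAAT box, to GGGCGG, the GC box, to CACGTG, the E-box, or to TATAAA, the TATA box. The windows are chr17:46729166-46729415 for Gnmt, chr2:155074498-155074747 for Ahcy, chr2:27247304-27247553 for Sardh and chr6:72439557-72439806 for Mat2a, all on the minus strand.
Gnmt: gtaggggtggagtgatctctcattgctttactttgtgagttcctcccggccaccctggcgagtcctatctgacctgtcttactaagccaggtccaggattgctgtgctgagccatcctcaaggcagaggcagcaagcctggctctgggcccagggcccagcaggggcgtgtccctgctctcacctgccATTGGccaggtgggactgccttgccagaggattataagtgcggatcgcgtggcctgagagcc
Ahcy: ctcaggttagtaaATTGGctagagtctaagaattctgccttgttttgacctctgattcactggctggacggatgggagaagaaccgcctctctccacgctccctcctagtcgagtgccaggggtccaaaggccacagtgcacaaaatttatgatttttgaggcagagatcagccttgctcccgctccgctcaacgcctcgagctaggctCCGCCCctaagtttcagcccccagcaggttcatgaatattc
Sardh: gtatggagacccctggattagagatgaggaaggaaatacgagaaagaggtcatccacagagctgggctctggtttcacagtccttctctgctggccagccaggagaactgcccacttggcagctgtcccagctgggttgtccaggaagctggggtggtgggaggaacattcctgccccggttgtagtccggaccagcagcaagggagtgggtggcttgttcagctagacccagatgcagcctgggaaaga
Mat2a: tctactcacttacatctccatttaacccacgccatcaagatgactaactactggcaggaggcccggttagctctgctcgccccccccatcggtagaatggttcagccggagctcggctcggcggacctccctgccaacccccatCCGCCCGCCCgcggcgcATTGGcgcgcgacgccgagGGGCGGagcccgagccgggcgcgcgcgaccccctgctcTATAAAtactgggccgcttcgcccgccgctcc

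The Mat2a window held 29 CpG dinucleotides, against 6 for Gnmt, 9 for Ahcy and 3 for Sardh, where the median of all 32851 windows was 6. The members not called or not compared had 20 (Mtr), 15 (Mthfd1), 13 (Mat2b and Shmt1) and 7 (Shmt2 and Mthfd2). The Mat2a window had 1 CCAAT match, 3 GC box matches of which a pair overlap, and 1 TATAAA match whose first letter lies 32 bases before the start. Gnmt had 1 CCAAT match, 62 bases before the start, Ahcy 1 CCAAT and 1 GC box match, and Sardh no match to these letters. The E-box letters were in none of the 10 members' windows. CCAAT was found in 33.8% of all windows, GGGCGG in 32.7%, TATAAA in 12.4% and CACGTG in 6.0%. The 3 genes lower in Lgr6-high cells shared no searched motif that all of them held. A match describes letters only.

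Other genes of the same and neighbouring pathways were listed in 6 groups with 91 genes, of which 90 were on the array and 42 could be compared. Of these 42 genes 3 were called lower and none higher in Lgr6-high cells, with a median ratio of -0.28, where the median of all compared genes was -0.05. Ratios were below 0 for 31 of the 42 genes, or 73.8%, and for 53.6% of all genes. The share called lower, 3 of 42, stands beside 4.76% of all genes. These lists, too, were drawn up with earlier results of these data known, so nothing is read from their shares. Only 30 of the 42 genes were above background in both populations on both arrays. The others entered through 1 population, for example Cbs and Mthfd1l through Lgr5-high cells and Ggh and Sat1 through Lgr6-high cells. With the scanner's ratios 13 were lower and 3 higher, where 958 of all genes were called in each direction, and with median centring none was called. Median centring left the medians of all compared genes apart, at -1.36 on array 1 and 1.57 on array 2.

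Among other methionine cycle and methyl donor genes none of 4 compared genes was called. Adk, the adenosine kinase that clears the adenosine set free by Ahcy, had the largest ratio of this group. Its net signals were 165 in Cy5 and 1642 in Cy3 in Lgr6-high cells, against 408 in Cy5 and 1705 in Cy3 in Lgr5-high cells, with a ratio of -0.69 ± 0.20. The transsulfuration genes Cbs (-0.43 ± 0.01) and Cth (-0.26 ± 0.06), which lead homocysteine to cysteine, were not called either. With the scanner's ratios both passed the rule as lower, at -1.56 and -1.22. The other 12 genes of this group, the liver enzyme genes Mat1a and Bhmt among them, were too dim to compare.

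Among 7 compared folate enzymes and transporters, Tyms was called lower in Lgr6-high cells. Tyms, the thymidylate synthase that uses a folate carbon unit to make the DNA building block, had net signals of 84.9 in Cy5 and 579 in Cy3 in Lgr6-high cells. In Lgr5-high cells it had 361 in Cy5 and 1583 in Cy3. The ratio was -1.57 on array 1 and -1.63 on array 2. At the other end Ggh, which trims folate polyglutamates, had 0.94 ± 0.43 and was not called. The folate carrier Slc19a1 had -0.48 ± 0.02. With the scanner's ratios Ggh passed the rule as higher, at 2.09, and Slc19a1 as lower, at -1.095.

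Serine and glycine supply showed a called member as well. Gcat, which makes glycine from a threonine breakdown product in mitochondria, had net signals of 163 in Cy5 and 1604 in Cy3 in Lgr6-high cells, against 772 in Cy5 and 4128 in Cy3 in Lgr5-high cells. The ratio was -1.96 on array 1 and -1.52 on array 2. It was the 1 called gene of 7. The serine synthesis genes went both ways without a call, with Phgdh at -0.71 ± 0.03, Psph at -0.81 ± 0.19 and Psat1 at 0.50 ± 0.02, and the glycine transporter Slc6a9 had 0.89 ± 0.29.

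In polyamine synthesis and methionine salvage, which consume and recover the carbon skeleton of S-adenosylmethionine, 1 of 10 compared genes was called. Sms, the spermine synthase, was lower in Lgr6-high cells at -1.02 ± 0.28, close to the 2-fold minimum. It was called under 6 of 10 alternatives, where Tyms and Gcat were each called under 9. These counts, too, include settings that returned the reported value. Apip of the salvage pathway fell just short of the 2-fold minimum at -0.98 ± 0.19 and passed the rule with the scanner's ratios, at -1.67. Odc1, which starts polyamine synthesis, had 0.37 ± 0.22 and Amd1, which supplies decarboxylated S-adenosylmethionine, 0.37 ± 0.62.

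Neither of 2 compared purine ring genes was called, the larger ratio being that of Adsl at -0.29 ± 0.13. None of 12 compared S-adenosylmethionine-dependent methyltransferases was called. The largest ratio of these was that of the arginine methyltransferase Prmt5 at -0.81 ± 0.27, followed by the maintenance DNA methyltransferase Dnmt1 at -0.78 ± 0.26. With the scanner's ratios Prmt5 (-1.49), Dnmt1 (-1.41) and the histone methyltransferase Suv39h1 (-2.31) were called lower, so the absence of calls depends on the processing. The group's median was -0.22. Apart from Adk, Adsl, Prmt5, Tyms, Gcat and Sms, the pathway genes named here were chosen after their values were seen.

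**Figure D3:**
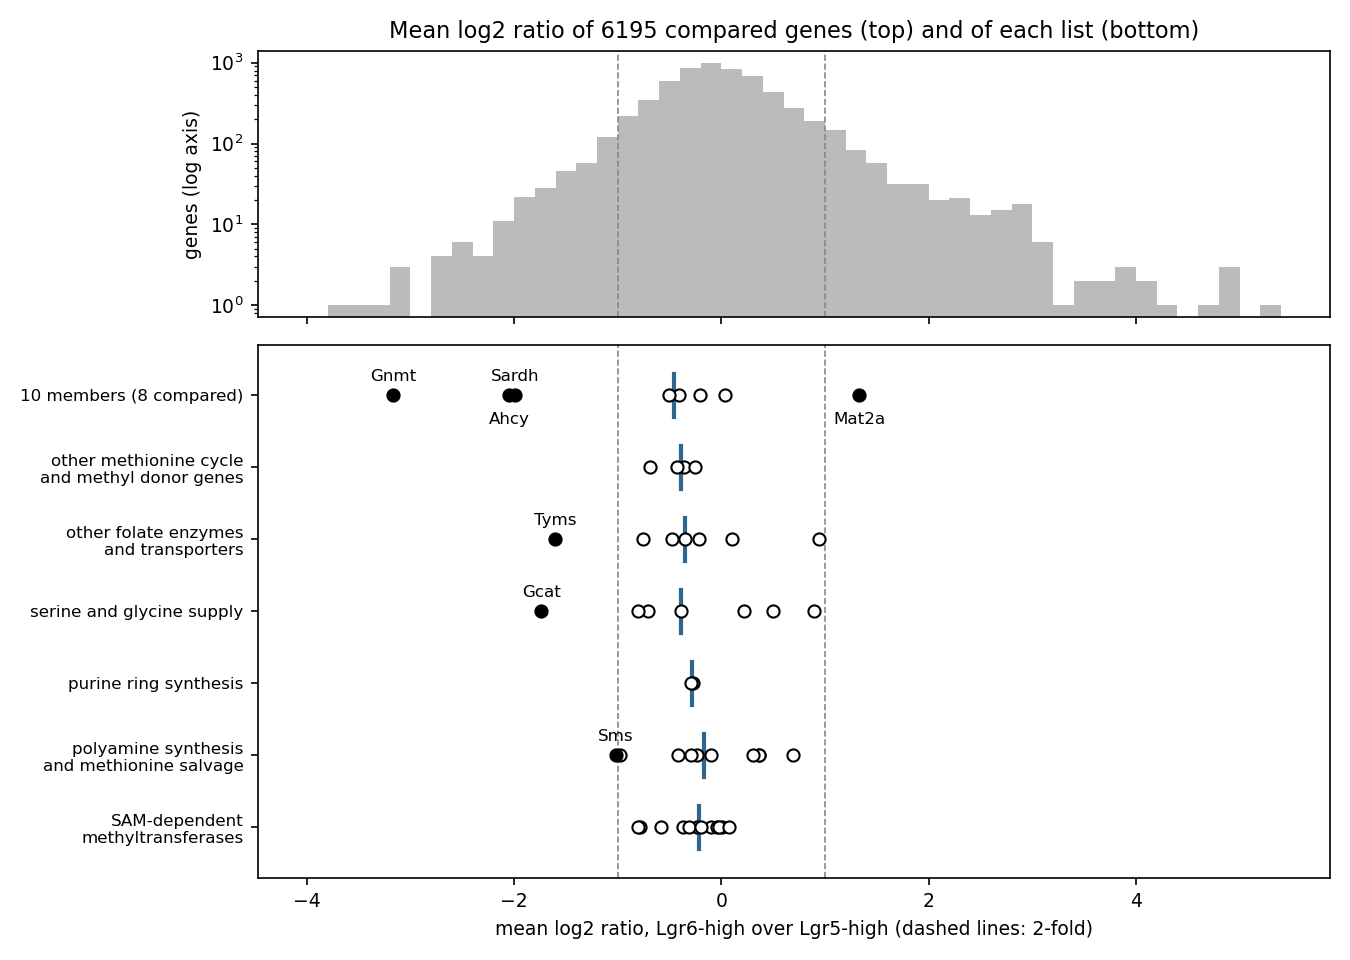
Upper panel, the number of genes (log axis) by mean log2 ratio of Lgr6-high over Lgr5-high cells for the 6195 compared genes. Lower panel, the same ratio for each compared gene of the members and of the 6 pathway groups, filled and named where called, with a bar at each group's median and dashed lines at 2-fold. Gnmt lies farthest left at -3.16 and Mat2a farthest right at 1.33, while Ahcy at -2.05 and Sardh at -1.99 lie close to Gcat at -1.74 and Tyms at -1.60.

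The genes whose pair of array ratios lay nearest to that of Gnmt, by Euclidean distance over the 2 arrays, were Tagln, Mfap2, Myl9 and Krt28. Because Gnmt ranked 4 of 6195, its nearest genes had to come from the same end, here ranks 6, 5, 1 and 9. Their nearness therefore shows no link to Gnmt beyond a similar ratio. Tagln, an actin-binding protein of smooth muscle, had -2.47 and -3.57. Mfap2, a microfibril protein, had -2.82 and -3.24. Myl9, a myosin light chain, had -2.96 and -4.35. Krt28, a keratin of the inner root sheath, was not well above background in Lgr6-high cells and the level in Lgr5-high cells exceeded it at least 5.73-fold.

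The sorting genes and markers of other cells were read beside these values. Lgr5 itself had a ratio of -1.83 ± 0.12, with a Lgr6-high signal of 22.0 in Cy5 on array 1 that was not well above background, and both Lgr6 probes were too dim to compare, at 0.02 ± 0.14 and 0.05 ± 0.14. Of 21 compared cell cycle genes 12 were called lower and none higher in Lgr6-high cells, among them Tk1 (-1.98 ± 0.35), a thymidine kinase, Birc5 (-1.73 ± 0.38) and Mcm7 (-1.64 ± 0.11). The summed net signal of the 25 listed cell cycle genes was 2545 in Cy5 and 20732 in Cy3 in Lgr6-high cells, against 8780 in Cy5 and 33770 in Cy3 in Lgr5-high cells. Of 6 compared dermal fibroblast markers 4 were called lower in Lgr6-high cells. The summed signal of the 10 listed was 257 in Cy5 and 627 in Cy3 in Lgr6-high cells, against 1094 in Cy5 and 4765 in Cy3 in Lgr5-high cells. No reading of Pdgfra, Fbn1, Mfap5 or Dpt was above background.

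Of 4 compared endothelial and mural markers 3 were called lower, and 7 of the 11 listed, Pecam1, Cdh5 and Kdr among them, were at background throughout. Their summed signal was 531 in Cy5 and 3298 in Cy3 in Lgr6-high cells, against 1440 in Cy5 and 5159 in Cy3 in Lgr5-high cells. The fourth compared marker, the smooth muscle actin gene Acta2, was not called and had 0.90 ± 0.42. Acta2 held 232 in Cy5 and 2561 in Cy3 of the sum in Lgr6-high cells, against 174 in Cy5 and 763 in Cy3 in Lgr5-high cells. Krt15 and Acta2 were chosen after their values were seen. Bulge markers were called lower in 5 and higher in 1 of 8 compared genes, and upper follicle markers lower in 1 and higher in 4 of 8. The summed signal of the 9 bulge markers was 13621 in Cy5 and 119178 in Cy3 in Lgr6-high cells, against 14068 in Cy5 and 42429 in Cy3 in Lgr5-high cells. The keratin gene Krt15 made up most of this sum, with 12686 in Cy5 and 109320 in Cy3 in Lgr6-high cells, against 11154 in Cy5 and 28826 in Cy3 in Lgr5-high cells, so the sum does not show the direction of the 5 genes called lower. Its own ratio was 1.95 on array 1 and -0.12 on array 2. That of the 9 upper follicle markers was 5566 in Cy5 and 49198 in Cy3 in Lgr6-high cells, against 1363 in Cy5 and 4442 in Cy3 in Lgr5-high cells. Suprabasal markers were called higher in 5 of 7, with sums of 8423 in Cy5 and 63004 in Cy3 in Lgr6-high cells, against 2381 in Cy5 and 11017 in Cy3 in Lgr5-high cells, and Ivl and Flg were at background. Of the compared markers, Schwann cell markers were called higher in 3 of 3 and sebaceous gland markers in 1 of 5. The melanocyte gene Dct was the 1 melanocyte marker compared and was called lower, and no leukocyte marker of 7 was bright enough to compare. The values of these markers stand beside the ratios of Gnmt, Ahcy, Sardh and Mat2a, and their part in them was not tested.

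**Figure D4:**
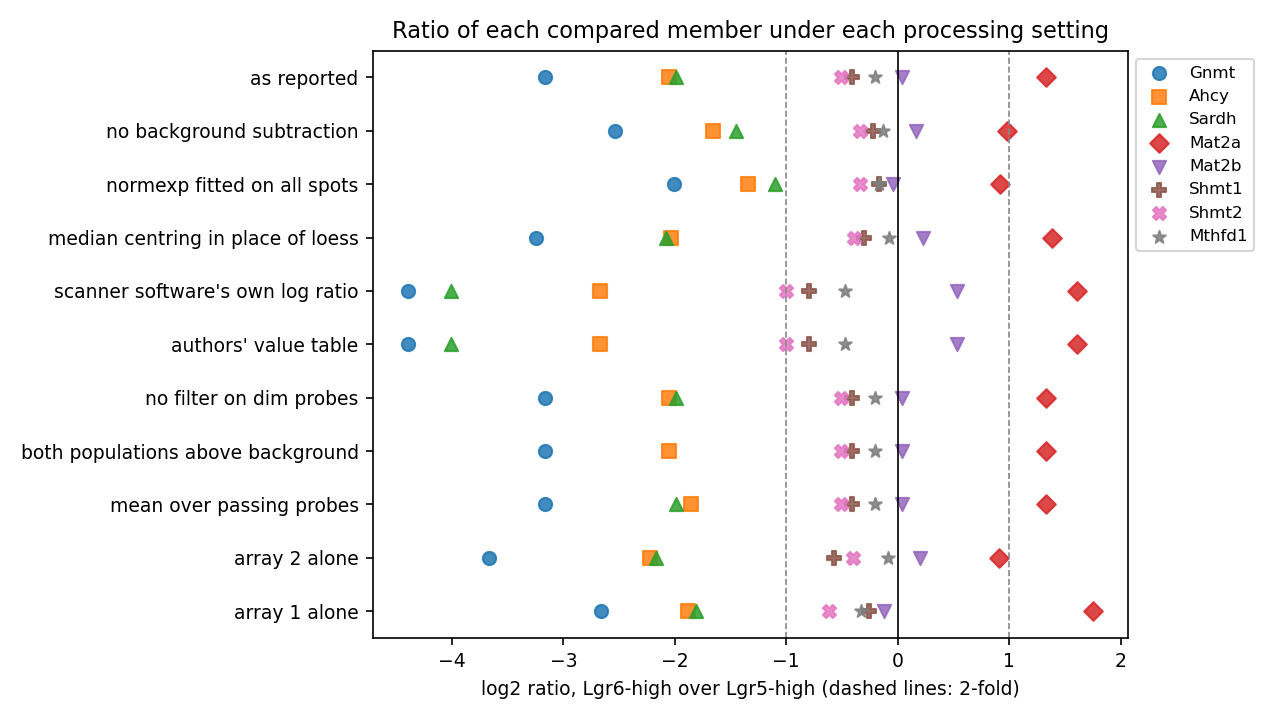
Log2 ratio of Lgr6-high over Lgr5-high cells (x axis) of the 8 compared members under the reported processing and 10 alternatives (rows), with dashed lines at 2-fold. Gnmt lies left of the lower line in every row, Ahcy and Sardh do too wherever they have a value, Mat2a lies between 0.91 and 1.75, and Mat2b crosses 0.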

How the data were processed

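Each array gave 1 deposited scanner table. Per the file headers, the authors extracted spot and local background intensity in both channels by version 10.5.1.1 of Agilent Feature Extraction. The submitters' processing notes give 9.5.3. Probe positions are on mm9. The deposited tables also hold the software's log10 ratio of Cy5 over Cy3, exactly 0 for 48.6% (array 1) and 48.4% (array 2) of spots. The authors also deposited a value table with the same log10 ratios, with the sign turned on array 2, so its direction is Lgr6-high over Lgr5-high, and the median of both columns was 0.

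Here, with limma 3.58.1 in R 4.3.3, intensities were corrected by normexp (offset 50) fitted without spots marked as outliers, then normalised by loess within arrays with controls at weight 0. The offset pulls ratios of dim probes towards 0. Including the marked spots raised the fitted background SD in Cy5 on array 2 to 387, against 2.43 without them. Of 43379 probe spots, 139 and 204 were marked as outliers and left out, and none was saturated. On arrays 1 and 2, 31.6% and 33.3% of spots were above background in Cy3, but 15.3% and 16.2% in Cy5. A probe was compared if 1 population was well above background on both arrays, and the brightest such probe stood for its gene. Other genes were named through accessions, symbols and synonyms of a RefSeq table (GRCm38.p6). The ratios of the 2 arrays correlated at 0.749 (Pearson) across genes, which are not replicates.

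The members, the 6 pathway lists, the cell cycle list and the 9 cell type lists were chosen with earlier results of these data known. Named were all members, called pathway genes or otherwise the largest ratio of a list, Lgr5 and Lgr6, up to 3 called markers per list, and the 4 genes nearest to Gnmt. Further pathway genes and markers were named after their values were seen. Precision is limited by the number of arrays.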

Additional observations from a re-analysis of the deposited data

How the results depend on the processing

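The reported count of members called lower in Lgr6-high cells was 3, and it was 2 to 4 under the 10 alternatives. The alternatives are not all distinct, since the authors' value table repeats the scanner's ratios. For a gene with 1 probe, the changed filters and the mean over probes return the reported value or none. The count called higher, 1, became 0 without background subtraction, with the background model fitted on all spots and with median centring, and ranged from 0 to 1 when either array was left out; the cause was not tested. Of the 42 compared pathway genes the counts lower and higher were 3 and 0 as reported. They became 13 and 3 with the scanner's own ratios and with the authors' value table, and 0 lower with median centring. Median centring left all compared genes with medians of -1.36 on array 1 and 1.57 on array 2, a shift that the rule for each array takes in. With 1 array left out the counts of pathway genes ranged from 2 to 4 and from 0 to 2, the 2 genes higher on array 2 alone. For all genes the counts lower were 151, 57 and 958 with the background model on all spots, median centring and either the scanner's ratios or the authors' table. The counts higher were 212 without background subtraction and 124, 134 and 958 with the background model on all spots, median centring and either the scanner's ratios or the authors' table. With 1 array left out, 315 to 471 genes were lower and 434 to 611 higher. The mean ratio of no called member or pathway gene changed sign under these alternatives. Sardh had no value where both populations had to be above background. The ratios of Mat2b, Shmt1, Shmt2 and Mthfd1 rest on Cy5 signals near the negative controls. The Lgr6-high Cy5 signals of Gnmt, Ahcy and Sardh on array 1 were also dim, at 47.7, 59.4 and 35.3. Negative controls had a median of 22.3 there.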

Other observations

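Of the 42 compared pathway genes 9 had ratios of opposite sign on the 2 arrays, which is 21.4%, against 27.5% of all compared genes. The largest spread was that of Oaz1, the antizyme that limits polyamine synthesis, with 0.78 on array 1 and -0.98 on array 2. Oaz1 lay at percentile 97.9 of the compared genes by level. The 248 genes between percentiles 95 and 99 had median ratios of 0.12 on array 1 and -0.65 on array 2. Whether the level plays a part in the spread of Oaz1 was not tested. The arginine methyltransferase Prmt1 had -0.74 and 0.64, and the histone methyltransferase Ehmt1 -0.73 and 0.53. Sat1, which acetylates polyamines for export or breakdown, had 0.42 and 0.96, a mean of 0.69 ± 0.38, with Lgr5-high cells above background on 1 array, and the scanner's own ratio placed it at 2.48. These genes were chosen after their values were seen.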
